A study of Sus scrofa with 15 samples.

Results

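Genistein is an isoflavone of soy, and here it was added on its own to a cow's milk formula. The comparison uses 6 of the 15 testis libraries of the series and all 15634 genes that passed a count filter, of 30476 in the table. Of the 6 libraries, 3 come from male piglets fed the formula with genistein (M + G) and 3 from piglets fed the plain formula (Milk), chosen by the diet named in the labels. Each library is taken as 1 piglet, since the study's methods describe no pooling. All 6 piglets were Dutch Landrace Duroc, came from mixed litters, suckled the sow until postnatal day 2 and were then bowl-fed until their testes were frozen on day 21. The genistein dose was 84 mg/L, which the study's methods give as a concentration in the diet and the sample labels as a target in serum. The remaining groups were piglets given sow milk from a bowl (Sow), soy formula (Soy) and the same cow's milk formula with 17-beta-estradiol (M + E2), and they enter below only where they show how a level in M + G compares with the other diets. The RNA came from frozen testis tissue, a mix of cell types, so a lower level of a transcript can come from fewer cells of a type or from less RNA per cell, and these cannot be told apart in such samples.

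Genistein is known to bind estrogen receptors, with a preference for ESR2, and to inhibit protein tyrosine kinases in cultured cells. At this age the pig testis holds Leydig cells, which make steroids and INSL3, and seminiferous cords in which Sertoli cells surround the germ cells and secrete anti-Mullerian hormone (AMH) and inhibin. Peritubular myoid cells wrap the cords. The cords drain into the ducts of the rete testis and epididymis, which are lined by epithelium carrying the adhesion molecules EPCAM and CDH1 and several keratins.

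The Milk and M + G libraries held from 7385856 to 9488579 counted reads. Where a library shows 0 reads of a gene, up to 3 reads cannot be told from none, a floor that, like the intervals below, covers counting error only. Levels are CPM, a gene's reads scaled to the size of its library, after edgeR's TMM normalization, a value per gene that is not divided by gene length. The genes that passed the filter were tested by edgeR's quasi-likelihood test in a fit of all 5 diets. The call needed an adjusted p no higher than 0.05 together with a fitted difference of 2-fold or more.

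No gene was called between M + G and Milk (0 of 15634, 0%). The smallest adjusted p in edgeR's quasi-likelihood test was 0.578, for the keratin gene KRT14. At an unadjusted p under 0.05 there were 406 genes (2.6%), 216 of them higher in M + G (1.38%) and 190 lower (1.22%). The fitted change was past 2-fold in 312 genes, 159 higher and 153 lower, and its median over all genes was -0.01 on the log2 scale. DESeq2's Wald test and the edgeR exact test that the study used each called 2 genes, EPCAM and KRT14, both higher in M + G. With the exact test on the 6 libraries the adjusted p was 0.0082 for EPCAM and 0.00773 for KRT14. Over all alternatives the adjusted p of EPCAM ran from 9.68e-09 to 1.00 and that of KRT14 from 6.31e-07 to 1.00. Both smallest values came from edgeR's quasi-likelihood test with the replicate number as a block and number 1 left out, which leaves only 1 residual degree of freedom. The direction of both genes was the same under every alternative tried (19 for EPCAM and 20 for KRT14). In both genes all M + G libraries lay above all Milk libraries, so leaving out a library could not turn the direction.

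The M + G and Milk libraries of equal number tended to deviate from their group means in the same direction. This does not establish that they are paired, and the change was also examined within equal numbers. With the replicate number as a block, again 0 of 14379 genes were called (0%) by edgeR's quasi-likelihood test. The smallest adjusted p was 0.114, for KRT14 and EPCAM, and 888 genes had an unadjusted p under 0.05 (6.18%), of which 361 were higher (2.51%) and 527 lower (3.67%). Only 2 residual degrees of freedom remained in this fit. With the block in the 5-group fit, 490 of 15634 genes were higher (3.13%) and 278 lower (1.78%) at an unadjusted p under 0.05. Counted in CPM with no test, 2137 genes (13.7%) were higher and 1953 (12.5%) lower in M + G at all 3 numbers.

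Of the 10 genes of smallest p, 9 were higher in M + G. Genes nearly absent from Milk, such as EPCAM and PAX2, passed the filter only because of the M + G libraries. The direction of such genes follows in part from the filter, so this count is no evidence of a shared rise. EPCAM (ENSSSCG00000008429, Sscrofa11.1 chromosome 3, 93169800 to 93185221), the epithelial cell adhesion molecule, had 0.611, 0.372 and 0.251 CPM in Milk 1 to 3 and 2.75, 22.1 and 4.61 CPM in M + G 1 to 3. All M + G libraries lay above all Milk libraries, and M + G 2 was far above the other M + G libraries. In reads these levels were 4, 3 and 2 in Milk and 21, 207 and 41 in M + G. The fitted log2 fold change was 4.57 (SE 0.872, unadjusted p = 0.000145 in the edgeR fit).

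KRT14, a keratin of basal epithelial cells, was the gene with the smallest p of all. It had 2.14, 2.23 and 1.88 CPM in Milk (2.08 ± 0.182, SD, n = 3) and 7.07, 27.0 and 10.5 CPM in M + G (14.8 ± 10.7). The Milk libraries were tightly grouped, and the lowest M + G library had over 3 times the level of the highest Milk library. The Sow, Soy and M + E2 libraries, at 2.59 to 6.01 CPM, lay above all Milk libraries and below all M + G libraries. The fitted log2 fold change was 2.83 (SE 0.469, unadjusted p = 3.7e-05 by edgeR). Keratin genes resemble one another, and reads of 36 bases may be split between them, so the level of KRT14 is uncertain to that extent.

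CDH1, which encodes E-cadherin, had 0.764, 0.868 and 1.50 CPM in Milk and 2.36, 10.3 and 4.16 CPM in M + G, without overlap. Its fitted log2 fold change was 2.41 (SE 0.499). KRT7, a keratin of simple and ductal epithelium, had 0.458, 0.124 and 0.877 CPM in Milk and 1.44, 6.93 and 4.39 CPM in M + G, with a fitted log2 fold change of 3.10 (SE 0.764). Again M + G 2 held the highest level and the groups did not overlap. CLDN4, a tight junction claudin, differed less, with 3.51, 3.60 and 5.51 CPM in Milk and 5.63, 6.61 and 5.96 CPM in M + G (log2 fold change 0.52, SE 0.272). In the Sow, Soy and M + E2 libraries CDH1 had 1.42 to 2.19 CPM, below all M + G libraries. KRT7 had 0.474 to 2.66 CPM there and CLDN4 2.97 to 7.88 CPM, and both ranges overlapped that of M + G.

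PAX2, a transcription factor of the developing urogenital ducts, was nearly absent from Milk. It had 0, 0 and 1 read in Milk and 5, 42 and 15 reads in M + G, a ratio of 54.1 with a 95% counting interval from 9.36 to 2170. TMPRSS2, a serine protease of epithelial surfaces, had 0, 1 and 1 read in Milk and 3, 32 and 15 in M + G, a ratio of 21.8 with an interval from 5.73 to 185. Both genes had more reads in each M + G library than in any Milk library, and both were too low for the filter of the 6-library fit. Outside M + G, PAX2 had at most 4 reads and TMPRSS2 at most 5 in any library of the 5-diet fit. Both therefore passed the filter of that fit only because of the M + G libraries.

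**Figure D1:**
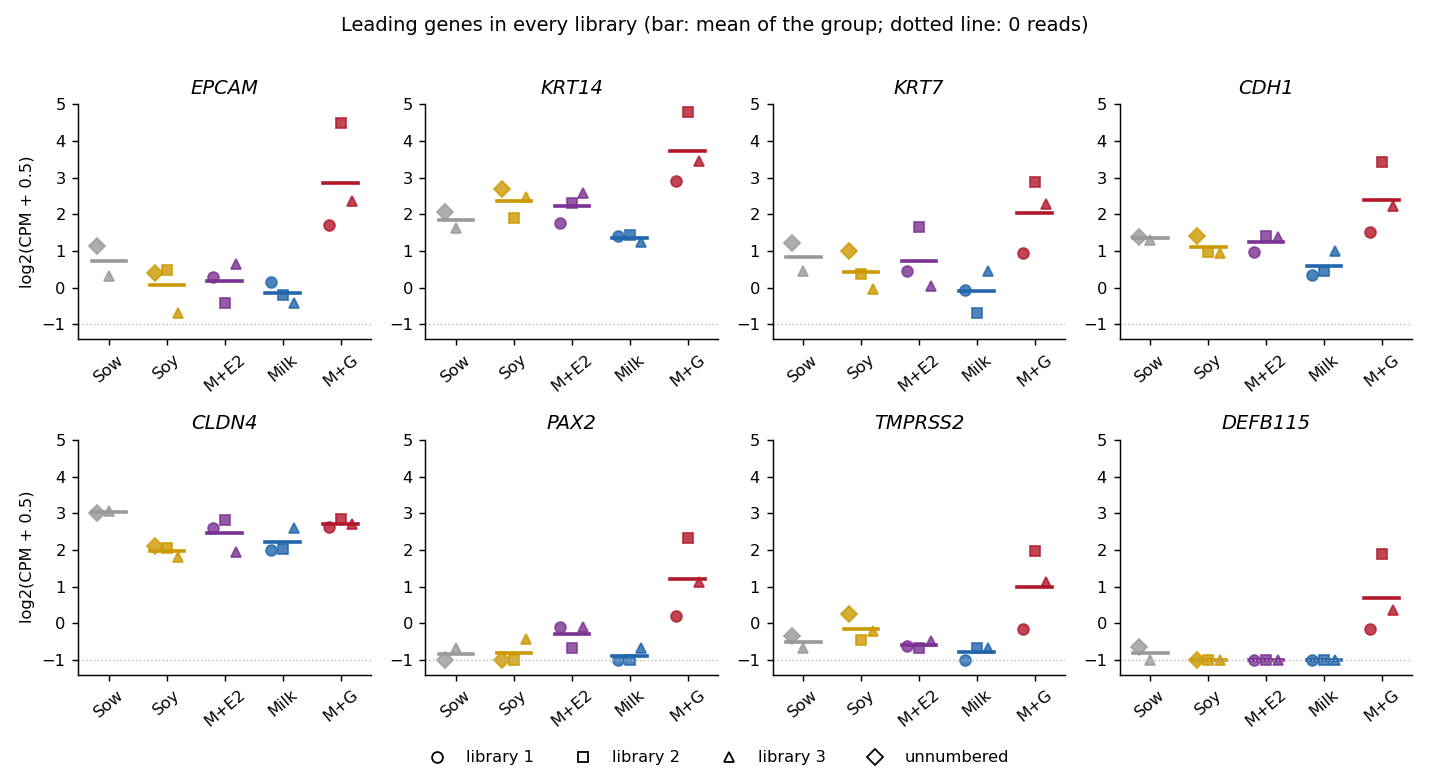
Level of 8 genes in each of the 14 libraries, as log2(CPM + 0.5), by diet. Points are libraries, with symbols for their number, bars are group means, and the dotted line marks 0 reads. For EPCAM, KRT14, KRT7, CDH1, PAX2, TMPRSS2 and DEFB115 the 3 M + G libraries lie above the 3 Milk libraries, with M + G 2 the highest. For CLDN4 the groups are separate by a small step.

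DEFB115 (ENSSSCG00000007216, Sscrofa11.1 chromosome 17, 35029031 to 35034148), a beta-defensin, was counted in every M + G library and in no Milk library. It had 0 reads in each Milk library and 3, 30 and 7 reads in M + G. Set against the floor of 3 reads per library, the level in M + G was at least 3.63-fold higher, and at least 1.47-fold without M + G 2, which held most of the reads. The 3 reads of M + G 1 are themselves at that floor, so the bound without M + G 2 rests on M + G 3. The gene had 0 reads in all Soy and M + E2 libraries and 1 read in 1 of the Sow libraries of the fit. It was too low for the expression filter, and without the filter its unadjusted p was 0.000374 in edgeR's quasi-likelihood test (adjusted p = 0.687) and 3.87e-05 in the exact test (adjusted p = 0.165). Of the 15 beta-defensins in the table, 7 had no read in Milk or M + G, and the only one that passed the filter, DEFB123, had a lower mean in M + G (0.659 ± 0.127 CPM) than in Milk (1.38 ± 0.904 CPM, SD, n = 3). KRT19 and DAZL, which the study names for this diet, were not analysed here.

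Across the epithelial list the group means shared a direction, although M + G 2 held the highest summed level. Without that library the median of the list was 0.70 and some members were below 0, as given below. The list holds 26 genes of epithelia, and all 22 of those in the table had a higher mean CPM in M + G than in Milk. Of these, 18 passed the filter, and their median fitted log2 fold change was 1.48, beside -0.01 over all genes tested, and all 18 were above 0, as 48.6% of all genes were. At an unadjusted p under 0.05 there were 12 of 18 higher and 0 lower, beside the 1.38% of all genes given above, and with the block in the 5-group fit 17 of 18 were above 0. In CPM, 9 members did not overlap between groups (2.71% of all genes tested did so in this direction). However, 4 members, EPCAM, PAX2 and PRSS8 among them, passed the filter only because of the M + G libraries. Of the 14 members that pass without them, all 14 had a positive fitted change, with a median of 1.10, and 8 had an unadjusted p under 0.05. The changes of these 14 ran from 0.11 for KRT8 to 3.10 for KRT7. Among the others, chosen here after their values were seen, the claudin CLDN7 had 1.22, 0.868 and 0.627 CPM in Milk and 1.44, 8.32 and 3.04 CPM in M + G, and WFDC2, a secreted protein of the epididymis, had 2.44, 2.23 and 3.26 CPM in Milk and 4.84, 11.1 and 4.05 CPM in M + G. CLDN3, another claudin, had 3.05, 3.72 and 4.39 CPM in Milk and 6.15, 5.44 and 8.78 CPM in M + G, the one of these in which M + G 2 was not the highest. None of the list was called, and its genes share the same libraries, so they are not independent of one another. The list was also chosen with earlier results of these data known, and it holds EPCAM, which the study reports as higher in M + G than in Milk. Its counts are therefore a description and not independent support.

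The epithelial level was highest in 1 library. The summed level of the 20 listed genes other than KRT8 and KRT18 was 33.9, 45.6 and 42.9 CPM in Milk 1 to 3 and 53.0, 152 and 66.7 CPM in M + G 1 to 3. The M + E2 libraries had 48.4 to 58.5 CPM, the Soy libraries 38.4 to 45.9 CPM and the Sow libraries 43.7 and 50.1 CPM, so M + G 1 lay within the range of M + E2, M + G 3 somewhat above it and M + G 2 far above every other library. KRT8 and KRT18 were set apart after their values were seen, because KRT8 is by far the most abundant member and was not higher in M + G 1 or M + G 3. KRT8 had 178, 128 and 183 CPM in Milk and 133, 311 and 83.8 CPM in M + G, and KRT18 had 0.916, 1.74 and 9.40 CPM in Milk and 1.31, 19.2 and 1.69 CPM in M + G. In both groups the libraries spread widely and overlapped, and over all 22 genes the sums were 213, 175 and 235 CPM in Milk and 187, 482 and 152 CPM in M + G.

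Leaving out M + G 2 lowered the median of the list to 0.70, with 11 of 16 members above 0 and 5 at an unadjusted p under 0.05. The fitted log2 fold change of EPCAM was then 3.16, that of KRT14 2.07, that of CDH1 1.62 and that of KRT7 2.56. In EPCAM, CDH1 and KRT7 of the list, and KRT14 outside it, the other M + G libraries also lay above all Milk libraries. Their direction without M + G 2 could therefore not change, while 5 of 16 members of the list were then below 0. ELF3, an epithelial transcription factor below the filter that was picked out after its values were seen, had 1 read over the Milk libraries and 54 over the M + G libraries (ratio 47.1, 95% counting interval from 8.10 to 1895), nearly all of them from M + G 2, where it had 5.44 CPM, beside 0.262 and 0.113 CPM in M + G 1 and 3. Markers of other cells also differed in M + G 2. The summed level of 9 peritubular myoid genes there was 3264 CPM, beside 872 and 960 CPM in M + G 1 and 3, and the 17 Sertoli genes summed to 4052 CPM there, beside 7029 and 8201 CPM. In Milk 2, which had no high epithelial level, the peritubular sum was 4247 CPM, beside 1405 and 1133 CPM in Milk 1 and 3. The part of these differences in the epithelial levels was not tested.

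The other genes with the smallest p and no overlap between the groups included several that are not on the epithelial list. STRA6, the receptor through which cells take up retinol from its carrier, had 1.99, 1.12 and 2.51 CPM in Milk and 4.06, 10.7 and 5.06 CPM in M + G (log2 fold change 1.82, SE 0.461). EPS8L2, an actin regulator, had 1.17 ± 0.477 CPM in Milk and 3.82 ± 0.624 CPM in M + G (SD, n = 3). MAP7, which binds microtubules and is abundant in epithelia, had 5.20 ± 1.28 CPM in Milk and 11.9 ± 2.94 CPM in M + G. FIBCD1, a membrane receptor for chitin, had 0.528 ± 0.320 CPM in Milk and 1.76 ± 0.275 CPM in M + G. In EPS8L2, MAP7 and FIBCD1 the M + G libraries were closer to one another than in EPCAM, and the fitted log2 fold changes were 1.71, 1.19 and 1.71.

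Among the genes lower in M + G, TAGLN3, a calponin family member best known from neurons, had the smallest p. It had 6.41, 8.43 and 7.14 CPM in Milk and 3.54, 3.41 and 3.60 CPM in M + G, a fitted log2 fold change of -1.06 (SE 0.243, unadjusted p = 0.000734 by edgeR). All M + G libraries were at nearly the same level, and the M + G mean was also lower than that of M + E2, with 6.83, 8.74 and 9.91 CPM. Of the 10 lower genes named by the rule, the change with the greatest size was that of RPH3A, a rabphilin of secretory vesicles, with 16.3, 23.9 and 5.01 CPM in Milk and 1.96, 1.17 and 4.84 CPM in M + G (log2 fold change -2.50, SE 0.728). It rested on Milk 1 and Milk 2, since the libraries numbered 3 were nearly equal.

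The remaining genes of this set were lower by smaller steps. ITPRID1 fitted -0.82, KCNIP4, a potassium channel-interacting protein, -0.64, and C8orf89 -1.39. TMEM132D fitted -1.22 and CCT6B, a chaperonin subunit of the testis, -1.07, and HAVCR2, an inhibitory receptor of immune cells, had 4.38 ± 0.850 CPM in Milk and 2.19 ± 0.496 CPM in M + G (SD, n = 3). SLC10A1, a bile acid transporter that also carries steroid sulfates, had 11.3, 10.5 and 8.90 CPM in Milk and 6.94, 6.93 and 4.28 CPM in M + G. STX8, a SNARE protein of endosomes, had 57.9 ± 7.08 CPM in Milk and 39.6 ± 2.93 CPM in M + G (SD, n = 3). Over all genes tested, 2.03% had M + G libraries that all lay below the Milk libraries. The genes here were picked for groups that do not overlap, so a lower level in M + G at all 3 numbers follows from the choice.

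**Figure D2:**
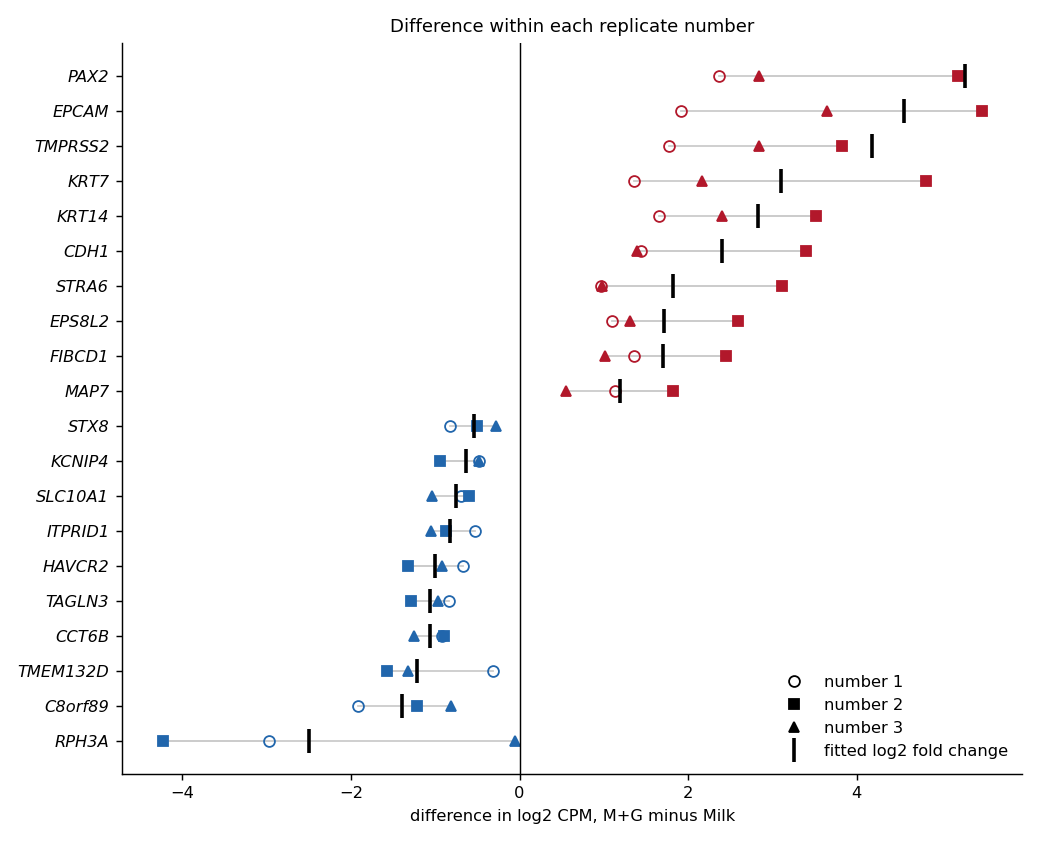
Difference in log2 CPM between the M + G and Milk libraries of equal number, for the 10 higher and 10 lower genes of smallest p whose groups did not overlap; the black bars are the fitted log2 fold changes. The choice of genes fixes the side on which the points lie. Number 2 has the largest difference in all 10 higher genes, and RPH3A is close to 0 at number 3.

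Within equal numbers the differences of the 10 higher genes were largest at number 2 throughout. In log2 CPM, EPCAM differed by 1.92, 5.48 and 3.65 at numbers 1 to 3, KRT14 by 1.65, 3.52 and 2.40, and CDH1 by 1.44, 3.40 and 1.39. Among the lower genes no number held the largest difference throughout. TAGLN3 differed by -0.84, -1.28 and -0.97 and CCT6B by -0.92, -0.90 and -1.25, so their differences were much alike, whereas RPH3A differed by -2.98, -4.23 and -0.05.

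The difference between the supplemented formulas was tested directly, since M + G and M + E2 share the base formula; it uses the same M + G libraries as the comparison with Milk. Again 0 of 15634 genes were called (0%) by edgeR's quasi-likelihood test, with a smallest adjusted p of 0.159 and 1096 genes (7.01%) at an unadjusted p under 0.05. The count of calls depended on the test, with 16 by DESeq2's Wald test and 99 by edgeR's exact test. EPCAM was higher in M + G than in M + E2 by 3.81 on the log2 scale (SE 0.798) and KRT14 by 1.79, at adjusted p of 0.511 for both by edgeR. In contrast, MAP7 and FIBCD1 differed from M + E2 by 0.18 (SE 0.262) and 0.04 (SE 0.365), and in M + E2 they had 8.87 to 11.4 CPM and 1.37 to 2.18 CPM, above all Milk libraries. KRT8 was higher in M + G than in M + E2 by 1.40 on the log2 scale, STAR by 1.48 and CYP19A1 by 0.92, and none of these passed the adjusted threshold.

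The transcripts of the known targets of genistein showed no call. Transcript levels do not show whether genistein bound a receptor or inhibited a kinase. ESR1 had 11.8, 8.31 and 17.3 CPM in Milk and 16.4, 18.8 and 17.4 CPM in M + G (log2 fold change 0.49, SE 0.231, unadjusted p = 0.0521 by edgeR). It was higher in M + G at each number, but by only 0.01 at number 3. ESR2, the receptor that genistein prefers, was barely expressed, with 4, 5 and 6 reads in Milk and 4, 7 and 8 reads in M + G. GPER1, the membrane receptor, had 1.22, 9.05 and 1.63 CPM in Milk and 1.57, 3.84 and 1.35 CPM in M + G, with number 2 high in both groups. Over the 6 estrogen and estrogen-related receptors, 2 were above and 4 below 0, with a median of -0.23. ESRRG, an orphan relative of the estrogen receptors, had 2.68 ± 0.949 CPM in Milk and 1.84 ± 0.238 CPM in M + G.

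Of 24 genes known to respond to estrogen in other tissues, 20 were tested. Their median log2 fold change was 0.08, with 12 above and 8 below 0, and 0 reached an unadjusted p under 0.05. PGR, the progesterone receptor and the classical target of ESR1, had 3.97, 1.74 and 3.01 CPM in Milk and 1.83, 4.48 and 2.36 CPM in M + G (log2 fold change 0.02, SE 0.384). Its libraries overlapped fully. RARA, a retinoic acid receptor, and RAMP3, a partner of the calcitonin receptor family, had the smallest p of the list and differed by 0.21 and 0.36 on the log2 scale.

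Receptor tyrosine kinases were examined because genistein inhibits tyrosine kinases. Of 22 tested, 15 were above 0, as 48.6% of all genes were, and 2 had an unadjusted p under 0.05, both higher (1.38% of all genes). The median was 0.18, and with 1 library left out it ran from 0.053 without Milk 1 to 0.38 without Milk 3. TYRO3, a receptor of the TAM family that Sertoli cells use in clearing apoptotic germ cells, had 30.5, 20.3 and 34.3 CPM in Milk and 43.3, 36.9 and 53.0 CPM in M + G. The groups did not overlap, and the log2 fold change was 0.65 (SE 0.190, unadjusted p = 0.00466 by edgeR). FGFR2, a receptor for fibroblast growth factors, had 8.78 ± 2.10 CPM in Milk and 13.2 ± 2.37 CPM in M + G (SD, n = 3). In M + E2, TYRO3 had 48.4 to 58.5 CPM, above all Milk libraries, and FGFR2 10.4 to 13.7 CPM.

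Other groups known to be touched by isoflavones showed medians near that of all genes. The median was -0.06 over 7 genes of the aryl hydrocarbon receptor pathway, 0.01 over 8 genes that conjugate or export isoflavones and steroids, -0.04 over 11 genes of the PPAR pathway and 0.06 over 9 antioxidant genes, with 0 members at an unadjusted p under 0.05 in each. CYP1A1 was at 0.907 ± 0.466 CPM in Milk and 1.03 ± 0.508 CPM in M + G and CYP1B1 at 305 ± 41.9 and 301 ± 43.8 CPM (SD, n = 3). AHR, the receptor itself, differed by -0.16 on the log2 scale (SE 0.143), and AHRR, its repressor, by -1.37 (SE 0.683), at 4, 16 and 17 reads in Milk and 2, 7 and 7 reads in M + G. PPARG and FABP3, of fat storage and fatty acid transport, differed by -0.49 and -0.45, and the antioxidant genes PRDX1 and GCLM by -0.53 and 0.31. SULT1E1, the estrogen sulfotransferase, had 1.07, 28.1 and 0.501 CPM in Milk and 1.70, 1.49 and 0.900 CPM in M + G. Its fitted log2 fold change of -2.87 rested on Milk 2, and without that library it was 0.81. SULT2A1, the sulfotransferase of hydroxysteroids, had 572, 403 and 257 CPM in Milk and 266, 247 and 341 CPM in M + G, and the numbers differed in sign.

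DNA methylation genes were above 0 in 7 of 8 members (48.6% of all genes), with a median of 0.16. The median was 0.044 without Milk 2, 0.049 without Milk 1, 0.068 without M + G 3 and 0.54 without Milk 3. DNMT1, the maintenance methyltransferase, had 60.0, 63.7 and 100 CPM in Milk and 102, 75.3 and 108 CPM in M + G, and UHRF1, which recruits it, had 39.5 ± 15.9 and 49.9 ± 9.07 CPM. Immediate early genes had a median of -0.13, with 5 of 18 above 0 (48.6% of all genes), and of 0.11 without Milk 2. FOSL2, an AP-1 subunit, and EGR2, a zinc finger factor, were the members of smallest p and were among those above 0, by 0.45 and 0.65.

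**Figure D3:**
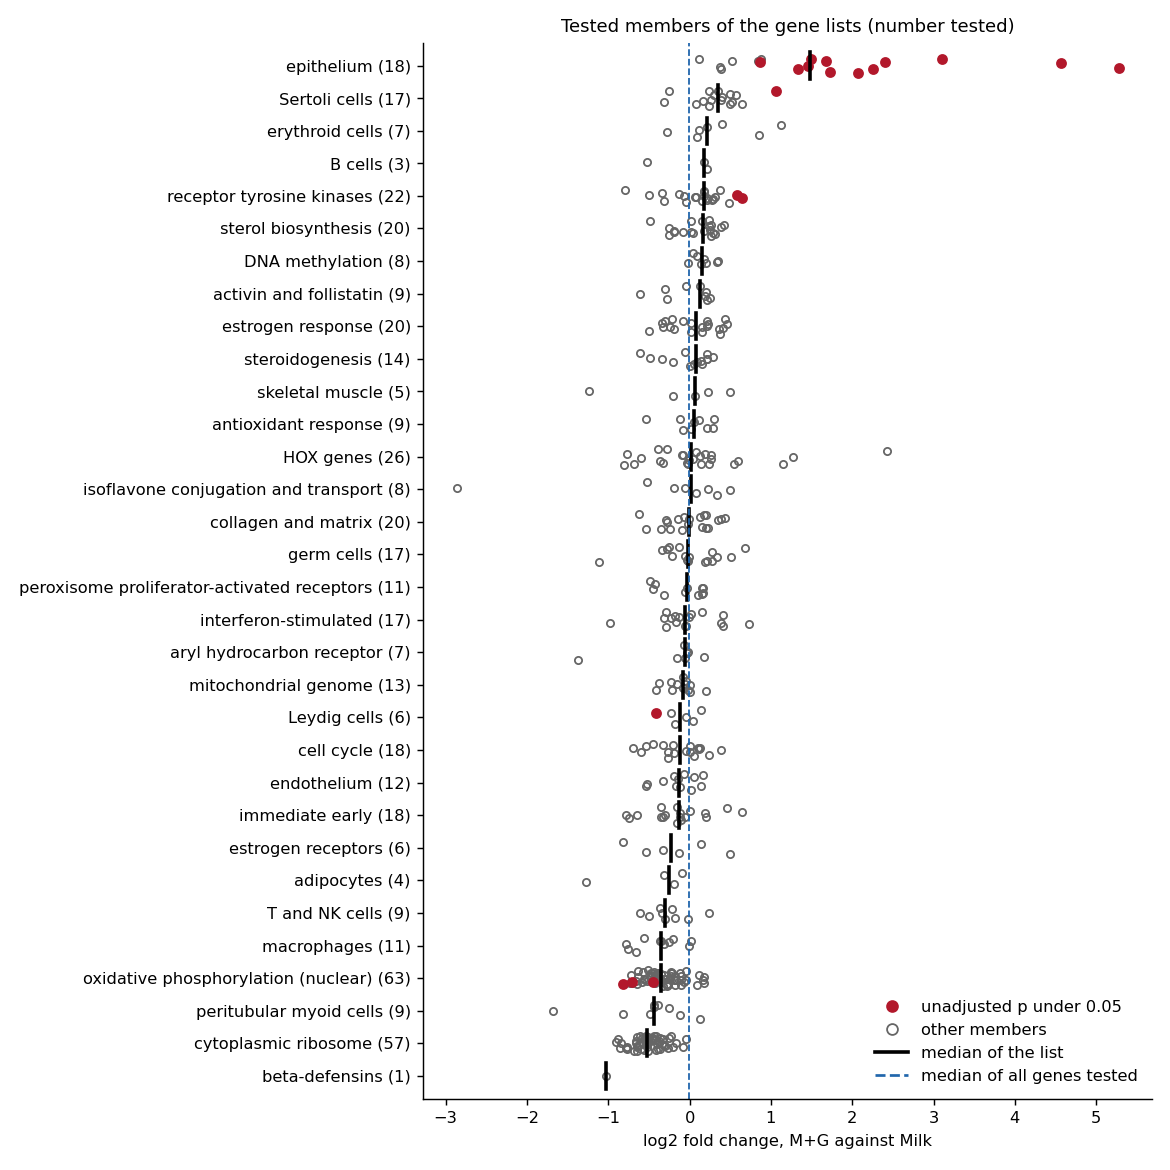
Fitted log2 fold changes of M + G against Milk for the tested members of the 32 gene lists, with the number tested in brackets. Red points had an unadjusted p under 0.05, black bars are list medians and the dashed line is the median of all genes tested. The epithelial list stands to the right with 12 red points of 18, and the ribosomal and respiratory lists lie to the left with 0 and 3. Lists were chosen with earlier results of these data known, and 4 of the epithelial members passed the filter only because of the M + G libraries.

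Steroidogenic genes, among the most abundant transcripts of the library, did not differ between the groups beyond their spread. STAR, which carries cholesterol into mitochondria, had 5484, 1783 and 3299 CPM in Milk and 3745, 3643 and 3232 CPM in M + G. The log2 fold change was 0.01 with an SE of 0.373. The M + G libraries were close to one another and lay inside the wide range of Milk.

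CYP11A1, the side chain cleavage enzyme, had 2321 ± 1021 CPM in Milk and 2416 ± 160 CPM in M + G (SD, n = 3), and CYP17A1, the enzyme that leads to androgens, had 7264 ± 3322 and 8405 ± 846 CPM. CYP19A1, the aromatase that makes estrogens, had 3413 ± 1481 CPM in Milk and 3649 ± 848 CPM in M + G. The pig genome holds several closely related aromatase genes, and short reads may be split between them. In STAR, CYP11A1, CYP17A1 and CYP19A1 the lowest of the 6 libraries was Milk 2, and within equal numbers M + G was higher at number 2 by 1.03, 1.02, 1.10 and 0.99 on the log2 scale while the differences at the other numbers were smaller, from -0.55 for STAR to 0.19 for CYP17A1. Over the 14 genes of the list the median was 0.08 with 9 above 0, and without Milk 2 it was -0.19 with 1 above 0. TSPO and CYB5A, the members of smallest p, had log2 fold changes of -0.61 (SE 0.494) and -0.49 (SE 0.420).

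Leydig cell markers other than the enzymes were likewise at similar levels. INSL3, the Leydig hormone of testis descent, had 6124, 3827 and 5165 CPM in Milk and 4413, 3024 and 5421 CPM in M + G (log2 fold change -0.23, SE 0.312). LHCGR, the receptor for luteinizing hormone, had 147 ± 60.6 and 151 ± 25.8 CPM. Of 6 markers, 2 were above 0 (48.6% of all genes). Only VCAM1, an adhesion molecule, had an unadjusted p under 0.05, as 1.22% of all genes did in the lower direction. It had 119, 85.7 and 87.0 CPM in Milk and 68.1, 82.5 and 67.6 CPM in M + G.

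Sertoli cell markers leaned upwards in M + G, although none was called. Of 17 markers, 15 were above 0, as 48.6% of all genes were, with a median of 0.36. In the first fit 1 had an unadjusted p under 0.05, in the higher direction, beside 1.38% of all genes. With the replicate block 5 of 16 had one, all higher, beside 2.51% of all genes in that fit. With the block in the 5-group fit 7 of 17 had one in either direction, beside 3.13% of all genes higher and 1.78% lower. AMH had 509, 349 and 662 CPM in Milk and 712, 564 and 866 CPM in M + G, which was higher at every number by 0.48, 0.69 and 0.39 on the log2 scale. SOX9, the transcription factor that specifies Sertoli cells, had 68.1, 36.2 and 104 CPM in Milk and 113, 58.8 and 127 CPM in M + G. Library 2 was the lowest of its group for both genes, so that the groups overlapped although each number showed a higher level in M + G.

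FSHR, the receptor for follicle-stimulating hormone, had 64.4, 26.3 and 67.5 CPM in Milk and 68.6, 44.8 and 95.1 CPM in M + G. GATA1, a transcription factor of Sertoli and erythroid cells, had 6, 6 and 5 reads in Milk and 16, 10 and 15 reads in M + G, without overlap (log2 fold change 1.07, SE 0.430). WT1, another Sertoli factor, had 55.3, 41.3 and 69.4 CPM in Milk and 72.9, 69.8 and 69.5 CPM in M + G and also did not overlap, although number 3 was nearly equal. The summed level of the list was 5091, 3400 and 5801 CPM in Milk and 7029, 4052 and 8201 CPM in M + G. With 1 library left out at a time the median of the list was 0.15 without Milk 2, 0.20 without M + G 3, 0.24 without M + G 1, 0.35 without Milk 1, 0.55 without M + G 2 and 0.59 without Milk 3.

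Some of these markers were higher still in M + E2. AMH had 1133, 1262 and 1183 CPM in M + E2 and was lower in M + G by 0.74 on the log2 scale (SE 0.273, unadjusted p = 0.0173 by edgeR, adjusted p = 0.613), and WT1 had 86.9 to 94.7 CPM in M + E2. INHA, the inhibin alpha subunit, had 967 ± 246 CPM in Milk and 1194 ± 389 CPM in M + G (SD, n = 3), and INHBA, the activin A subunit, 111 ± 43.2 and 128 ± 36.5 CPM. FST, the activin-binding follistatin, had 4.43, 20.7 and 2.63 CPM in Milk and 3.14, 13.3 and 1.69 CPM in M + G, with number 2 high in both groups. Over the 9 genes of the activin pathway the median was 0.13, with the inhibitory receptor BAMBI at -0.28 and the inhibitory SMAD7 at 0.25.

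**Figure D4:**
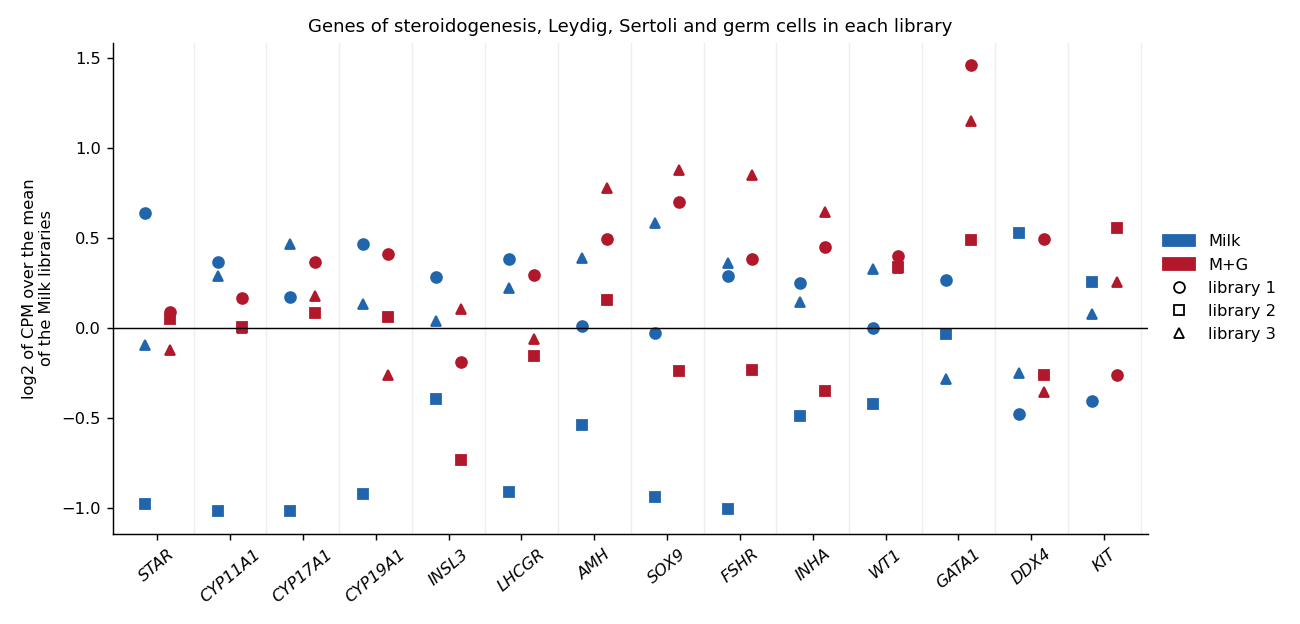
Levels of 14 genes of steroidogenesis, Leydig, Sertoli and germ cells in the 6 libraries, as log2 of the CPM over the mean of the 3 Milk libraries. Milk 2 is the lowest library for STAR, CYP11A1, CYP17A1, CYP19A1 and LHCGR, and the M + G libraries lie above the Milk library of the same number for AMH, SOX9, FSHR, INHA, WT1, GATA1 and KIT.

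Germ cell markers showed no common direction. DDX4, a helicase of germ cells, had 3.21, 6.45 and 3.76 CPM in Milk and 6.29, 3.73 and 3.49 CPM in M + G (log2 fold change -0.01, SE 0.405). KIT, which is also found on Leydig precursors, had 104 ± 23.1 CPM in Milk and 121 ± 32.9 CPM in M + G (SD, n = 3), whereas M + E2 had 189 to 238 CPM. RET, the GDNF receptor of spermatogonia, had 7.65 ± 3.75 and 10.9 ± 1.43 CPM, and STRA8, which retinoic acid induces before meiosis, had 0.787 ± 0.526 and 1.29 ± 0.279 CPM. Of 17 markers 7 were above 0, with a median of -0.02 and 0 at an unadjusted p under 0.05.

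Peritubular myoid markers had a median of -0.43, with 8 of 9 below 0 (51.4% of all genes). ACTG2, a smooth muscle actin that resembles the other actins closely, had 21.7, 203 and 18.8 CPM in Milk and 11.4, 51.0 and 13.6 CPM in M + G. It was lower in M + G at every number, yet the difference between the libraries numbered 2 and the others was larger than that between diets. Without Milk 2 the median of the list was 0.41 with 9 of 9 above 0, so its direction rested on that library in the fit without the block. Without any other single library it ran from -0.96 (M + G 2) to -0.14 (M + G 3), with -0.15 without M + G 1, -0.68 without Milk 1 and -0.76 without Milk 3. SYNPO2, an actin-binding protein of smooth muscle, had 52.5 ± 25.1 CPM in Milk and 40.2 ± 4.63 CPM in M + G (SD, n = 3). With the block it was -0.30, and 4 of 9 members had an unadjusted p under 0.05, all lower (3.67% of all genes in that fit). With the block in the 5-group fit the median was -0.29 and 0 of 9 had one.

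Ribosomal protein genes were below 0 in 57 of 57, with a median of -0.52, beside 51.4% of all genes tested that were below 0. None had an unadjusted p under 0.05, and 9 of 57 had one with the replicate block, 0 of them higher (3.67% of all genes were lower in that fit). With the block in the 5-group fit 0 of 57 had one. RPS29 had 658, 644 and 281 CPM in Milk and 264, 407 and 258 CPM in M + G, and RPS21 had 1001, 982 and 347 CPM in Milk and 316, 589 and 338 CPM in M + G. Milk 1 and Milk 2 were the high libraries, while Milk 3 was at the level of M + G. Within numbers the median of the list was -0.99, -0.52 and 0.20 at numbers 1 to 3.

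Nuclear genes of oxidative phosphorylation followed the same libraries. Of 63, 58 were below 0 (51.4% of all genes), with a median of -0.36. At an unadjusted p under 0.05 there were 3, all lower (1.22% of all genes). With the block of the 6 libraries there were 11 of 62, all lower (3.67% of all genes in that fit). With the block in the 5-group fit there were 3 of 63, beside 3.13% of all genes higher and 1.78% lower. NDUFA6, a subunit of complex I, had 45.0, 34.7 and 32.0 CPM in Milk and 29.5, 27.8 and 24.1 CPM in M + G, without overlap (log2 fold change -0.46, SE 0.179). NDUFC2, another subunit, had 55.1, 40.7 and 26.9 CPM in Milk and 23.4, 27.0 and 24.3 CPM in M + G. Within numbers the median was -0.73, -0.30 and 0.05, so the libraries numbered 3 were close to equal over the list. Transcripts of the mitochondrial genome had a median of -0.08 over 13 genes, with ND3 at 1424 ± 508 CPM in Milk and 1071 ± 267 CPM in M + G (SD, n = 3) and ATP8 at 205 ± 85.8 and 158 ± 67.5 CPM.

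Leaving out Milk 3 gave the most members of both lists at an unadjusted p under 0.05 of the 6 libraries left out in turn. The ribosomal median was then -0.83 with 35 of 57 members at an unadjusted p under 0.05, and that of oxidative phosphorylation -0.57 with 27 of 63, while the number of all genes at an unadjusted p under 0.05 went from 406 to 3281 and the number called stayed at 0 by edgeR. Ribosomal genes summed to 70792 and 71256 CPM in Milk 1 and Milk 2, to 30598 CPM in Milk 3 and to 35052 to 51453 CPM in M + G. Without Milk 1 the medians were -0.34 and -0.12, and without Milk 2 they were -0.32 and -0.31.

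**Figure D5:**
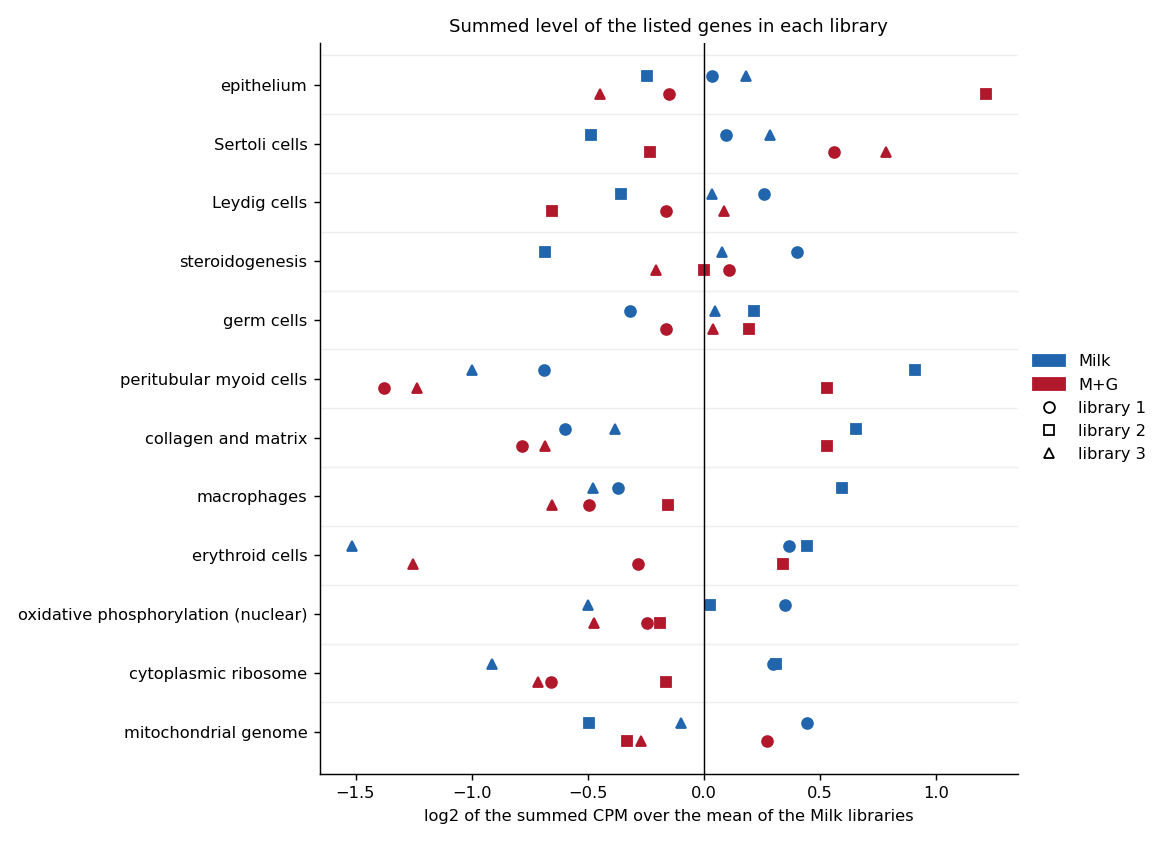
Summed CPM of 12 gene lists in each Milk and M + G library, as log2 of the ratio to the mean of the Milk libraries. M + G 2 stands apart for the epithelial list of 22 genes, libraries numbered 2 of both groups are high for peritubular and matrix genes, and Milk 3 is close to M + G for ribosomal genes.

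Immune and blood cell markers were examined as signs of other cells in the tissue. Macrophage genes were below 0 in 10 of 11 (51.4% of all genes), with a median of -0.35. C1QA, a complement subunit of resident macrophages, had 75.1, 154 and 38.7 CPM in Milk and 44.4, 67.8 and 43.4 CPM in M + G, and AIF1 had 21.2 ± 10.1 and 12.6 ± 3.47 CPM (SD, n = 3). Milk 2 was the high library, and without it the macrophage median was -0.08. The T and NK cell list had a median of -0.30 (0.13 without Milk 2), with CCL5 at -0.61 and NKG7 at -0.34, the B cell list 0.18, with CD79A at -0.52, and the erythroid list 0.22, with SLC4A1 at 1.13. In each of these 4 lists 0 members had an unadjusted p under 0.05.

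In the remaining lists no member reached an unadjusted p under 0.05. Medians were -0.13 for endothelium (0.15 without Milk 2), with TEK at -0.54 and EMCN at -0.52, -0.26 for adipocytes, with FABP4 at -1.27 and PLIN1 at -0.32, and 0.06 for skeletal muscle, with TNNI2 at -1.23 and TNNT3 at 0.49. They were -0.12 for the cell cycle, with BIRC5 at -0.70 and CCNB1 at -0.53, -0.06 for interferon-stimulated genes (0.35 without Milk 2), with MX1 at 0.73 and HERC5 at 0.41, and 0.17 for sterol biosynthesis (-0.082 without Milk 2), with SREBF2 at 0.42 and NSDHL at 0.27. Collagen and matrix genes were at -0.01, with DCN at -0.54 and LAMB1 at 0.39, and HOX genes at 0.02, with HOXC5 at -0.80 and HOXB8 at 1.14. Without M + G 2 the matrix median was -0.49, the HOX median -0.55 and HOXB8 0.019, and without Milk 2 the matrix median was 0.28. Of the 485 listed genes tested over all 32 lists, 0 were called.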

How the data were processed

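Testis RNA was sequenced as 36-base single reads. Per the study's methods, the authors mapped them with the CLC Genomics Workbench to a porcine gene library and then to the pig genome of Ensembl, and the authors deposited whole-number read counts per gene without normalization. Whether the counts hold reads of both mappings, and whether they used strand, was not given in the sources used here. There were 0 unused columns of samples.

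The table lists 30476 genes. It names 16446 by symbol, a reference table added symbols for 798, and 13232 had none. Positions come from a RefSeq annotation of Sscrofa11.1, matched by symbol.

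Counts were analysed here in R 4.3.3 with edgeR 4.0.16 (TMM, filterByExpr at a minimum count of 10, quasi-likelihood F test, Benjamini-Hochberg adjustment) in a fit of 14 libraries in 5 groups, contrasting M + G with Milk and with M + E2. Sow 2 was left out, as in the study. The code was tested on simulated data. CPM use TMM library sizes, and differences within numbers a prior count of 1. The block fit took the 6 libraries of both diets, with the replicate number as a term. Labels and methods state no pairing. By the check used here, deviations from the group means had r of 0.228, 0.490 and 0.412 between libraries of equal number and at most 0.113 otherwise. These values do not establish a pairing, because deviations within a group are not independent of one another and number 1 had a low r. Libraries are taken as separate piglets, since the study's methods describe no pooling. The p-values measure the spread between libraries, which the fit of 14 libraries estimates over all 5 groups.

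Named genes are DEFB115, EPCAM, KRT19 and DAZL, which the study names, the 10 higher and 10 lower genes with a symbol of smallest p whose groups do not overlap, the 2 members of smallest p in each list, and defining genes of each pathway and cell type, of which HSD3B1 was not analysed here; no gene was called, so none was named for a call. Some genes that these rules name are not reported here. Members and lists were chosen with earlier results of these data known. Lists are described and not tested. Alternatives were all 15 libraries, only the 6 libraries, the block in both fits, each library or pair left out, other filters, DESeq2 1.42.0 (size factors, Wald test), calls by adjusted p without the fold, and the exact test of edgeR. An exact test without filter and a DESeq2 test with block were added after seeing the data.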

Additional observations from a re-analysis of the deposited data

How the results depend on the processing

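The number of genes called between M + G and Milk was 0 with all 15 libraries, with only the 6 libraries, with the replicate block in either fit, with each Milk or M + G library left out in turn, with at least 10 counts in every library, with DESeq2's size factors and by adjusted p alone. It was 1 with no filter (KRT14), 2 by DESeq2's Wald test, 2 by edgeR's exact test, 3 by the exact test with no filter (EPCAM, KRT14 and PAX2) and 3 by DESeq2 with the replicate block (EPCAM and KRT14 higher, ENSSSCG00000018076 lower); the last pair of settings was chosen after seeing the data. Leaving out a pair of equal number in the fit with the replicate block gave from 21 to 188 calls, 35 without number 1, 21 without number 2 and 188 without number 3, with 1 residual degree of freedom. The count within equal numbers was 54 with no filter (36 higher, 18 lower). Against M + E2 the count was 0 with each library left out, 1 with only those groups, 2 with no filter, 16 by DESeq2, 99 by the exact test and 8 with the replicate block of M + G with M + E2. The cause of these differences was not tested.

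Of the 100 single genes fitted, 22 changed sign in some alternative, all with no call in the first fit. With 1 library left out, the log2 fold change ranged from -3.43 to 0.81 for SULT1E1, -1.24 to 0.16 for TSPO, -2.70 to 0.33 for ACTG2, -0.68 to 0.025 for SYNPO2, -2.44 to 0.45 for FABP4, -0.61 to 0.0093 for PLIN1, -0.045 to 0.31 for ESR2, -1.45 to 0.66 for GPER1, -0.45 to 0.30 for PGR, -0.31 to 0.48 for STAR, -0.27 to 0.28 for CYP11A1, -0.12 to 0.52 for CYP17A1, -0.21 to 0.40 for CYP19A1, -0.27 to 0.27 for LHCGR, -0.022 to 0.55 for INHBA, -1.95 to 0.80 for FST, -0.31 to 0.36 for DDX4, -0.20 to 0.48 for CYP1A1, -0.14 to 0.092 for CYP1B1, -0.59 to 0.45 for KRT8 and -1.42 to 2.46 for KRT18. With a pair left out of the fit with the replicate block, it ranged from -0.67 to 0.0044 for PRDX1, -0.75 to 0.051 for SYNPO2, -0.90 to 0.021 for GPER1, -0.71 to 0.49 for PGR, -0.29 to 0.48 for STAR, -0.24 to 0.42 for CYP11A1, -0.050 to 0.66 for CYP17A1, -0.22 to 0.48 for CYP19A1, -0.19 to 0.34 for LHCGR, -0.48 to 0.43 for DDX4, -0.77 to 0.45 for KRT8 and -1.48 to 2.68 for KRT18. With the replicate block and no library left out, PGR was at -0.0072 and KRT8 at -0.10, in the 5-group fit with the block -0.011 and -0.10, and by DESeq2 with the block -0.030 and -0.10, with DDX4 at 0.0082. DDX4 was at 0.043 in the fit with the replicate block without number 3. Of the 32 list medians, 18 took another sign with at least 1 library left out, 14 of them without Milk 2.

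Depth limits the lowest genes: EPCAM, PAX2, TMPRSS2, ESR2, GATA1 and DEFB115 had at most 6 reads in any Milk library. KRT7 and FIBCD1 had at most 7. The sizes of their changes rest on few reads in Milk.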

Other observations

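The summed CPM of the peritubular list in library 2 was 3.35 times the mean of libraries 1 and 3 in Milk and 3.56 times in M + G, and that of collagen and matrix genes 2.20 and 2.40 times. Sertoli genes were at 0.624 and 0.532 times. Other lists differed more between the diets in this ratio, with 0.781 times in Milk and 2.84 times in M + G for the epithelial list, 0.524 and 1.03 for steroidogenesis and 1.24 and 0.811 for the cell cycle.

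Some genes outside the lists differed in 1 direction at each number and were picked out after their values were seen. ANGPTL1, an angiopoietin-like secreted protein, had 10.5, 29.5 and 5.26 CPM in Milk and 3.14, 11.7 and 2.59 CPM in M + G. SLCO1C1, a transporter of thyroid hormones, had 5.34, 29.4 and 2.13 CPM in Milk and 1.70, 10.8 and 0.788 CPM in M + G. Both were high in library 2 of each diet and lower in M + G at all numbers, with log2 fold changes in the fit with the replicate block of -1.37 (SE 0.235) and -1.50 (SE 0.257) and an adjusted p of 0.568 for each by edgeR. SLC5A2, a glucose transporter, had 6.87, 5.70 and 9.40 CPM in Milk and 15.2, 10.4 and 27.5 CPM in M + G, with a log2 fold change of 1.20 (SE 0.221) in that fit. The Sow, Soy and M + E2 libraries had 10.7 to 17.2 CPM of SLC5A2, above all Milk libraries and inside the range of M + G. THBS4, a matrix thrombospondin, had 27.2, 13.6 and 19.3 CPM in Milk and 38.4, 34.8 and 54.8 CPM in M + G. It was also above all Milk libraries in M + E2, with 72.8, 68.3 and 44.5 CPM, while the Sow and Soy libraries had 14.5 to 21.5 CPM. The groups did not overlap in SLC5A2 and THBS4, and overlapped in ANGPTL1 and SLCO1C1.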
